A study of Mus musculus with 6 samples.

Results

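Gene expression in mouse gastrocnemius muscle, the large fast muscle of the calf, was compared between postnatal day 14 (PN14) and postnatal day 28 (PN28). These ages contribute 3 of the 6 RNA-seq libraries of the series, and every gene of the deposited table entered the comparison. Both PN14 libraries (replicates 1 and 2) and the PN28 library came from wild type FVB males, with RNA of 1 mouse in each and no treatment named in the labels. The other libraries, used here for context, were made from the same muscle at E18.5 (pooled males and females), at PN2 (pooled males) and in an adult male of 22 weeks. PN28 is therefore represented by a single animal, and each library was run on its own sequencing lane, so age, animal and lane cannot be told apart.

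Mouse pups are weaned between these ages, moving from milk, which is rich in fat and poor in carbohydrate, to a chow rich in starch. Suckling rodents run on fatty acids and ketone bodies, and tissues that make fat raise the enzymes of fatty acid synthesis once the diet holds more carbohydrate. In the same weeks a fast muscle loses its last developmental myosins and its slow fibres come to make up less of the tissue. The sources used here do not give the day on which these mice were weaned or what they were fed.

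Counts on genes were 125402932 and 150386264 in the PN14 libraries and 148410967 at PN28, so that 3 counts correspond to between 0.0198 and 0.0284 CPM in these libraries. CPM is the TMM-normalized count of a gene relative to the library total, and it is not corrected for gene length, so it is compared here between libraries and not between genes. Markers of muscle fibres (Ckm, Acta1, Des, Myh4 and Mylpf) were abundant in each, with a summed level of 180033, 127876 and 212302 CPM in replicate 1, replicate 2 and PN28. The PN14 mice were not alike. They differed from each other by at least 2-fold in 361 of the 13046 genes that reached 1 CPM in any of the 3 libraries, and by at least 1.5-fold in 1341. Mbp, the myelin basic protein of Schwann cells, had 138 CPM in replicate 1, 462 CPM in replicate 2 and 120 CPM at PN28.

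A gene is said here to have risen or fallen when PN28 lay beyond both PN14 libraries by at least 1.5-fold or 2-fold, as stated, and its distance to the nearer of them also exceeded the distance between them. Distances were taken on log2 of CPM plus 0.1. This is a rule of size and not a statistical test, since 1 animal gives no spread at PN28. By the 2-fold rule 114 genes rose (0.874% of the genes above 1 CPM) and 69 fell (0.529%), and by the 1.5-fold rule 328 rose (2.51%) and 277 fell (2.12%). Over all 13046 genes the median log2 difference was 0.0081, with 5432 genes higher than both PN14 libraries, 4796 lower than both and 2818 between them. Scaling to library size alone moved that median to -0.22 and turned the balance of the changes, to 85 genes that rose and 103 that fell by 2-fold and to 189 and 458 by 1.5-fold. Some lists below are also counted against 1 PN14 mouse alone, where there is no replicate distance to exceed. By 1.5-fold, 1321 of the 13046 genes rose and 1349 fell against replicate 2 alone, and 497 and 460 against replicate 1 alone. List counts against 1 mouse are to be set beside these larger numbers.

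**Figure D1:**
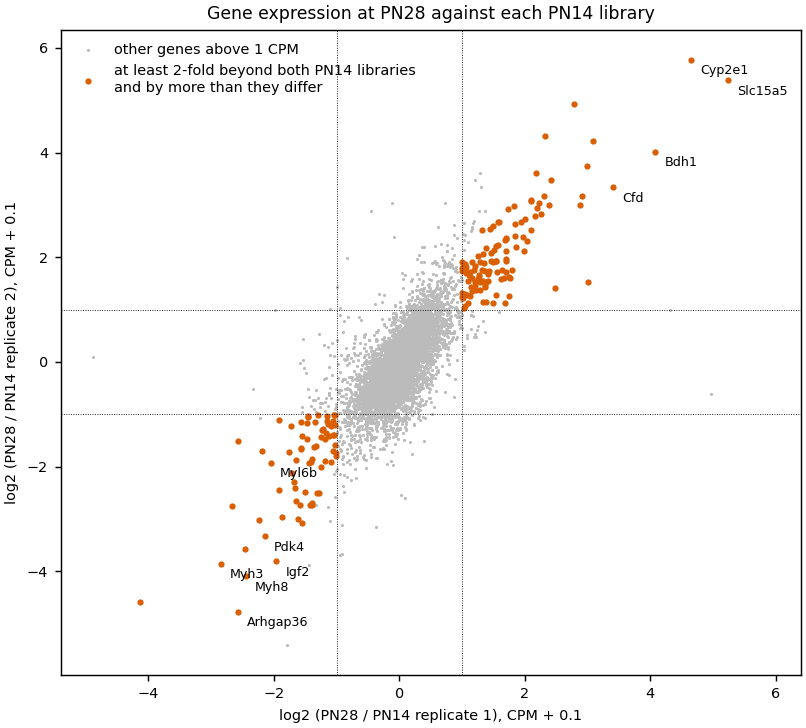
Each point is 1 of the 13046 genes above 1 CPM, with the log2 ratio of PN28 to PN14 replicate 1 on the horizontal axis and to PN14 replicate 2 on the vertical axis (CPM plus 0.1). Orange points are the 114 genes that rose and the 69 that fell by the 2-fold rule, dotted lines mark 2-fold, and the called genes Slc15a5, Bdh1 and Cfd lie near the diagonal at the upper right.

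Of the genes that rose by 2-fold, 61 reached 10 CPM at the higher age, 11 reached 100 CPM and 2 reached 1000 CPM, and 23 rose by more than 4-fold. Of the genes that fell by 2-fold, 26 reached 10 CPM, 12 reached 100 CPM and 3 reached 1000 CPM, and 8 fell by more than 4-fold. At the edge of the rule, Tmem45b was just inside with a log2 distance of 1.003 to the nearer PN14 library (1.21 and 0.694 CPM at PN14, 2.53 CPM at PN28), and 9630033F20Rik just outside at 0.997 (33.4 and 22.5 CPM, then 66.7 CPM). Among lower genes Smtnl1 was just inside at -1.005 and Adamts17 just outside at -0.993.

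The quasi-likelihood test, which borrows its spread from the PN14 pair and from all genes, called 3 of 16882 genes (0.0178%), all higher at PN28. They were Cfd, Slc15a5 and Bdh1. Without adjustment 1420 genes had a p under 0.05, of which 747 were higher at PN28 and 673 lower. The log2 distances between the PN14 mice were 0.082 for Cfd, 0.14 for Slc15a5 and 0.070 for Bdh1, against a median of 0.185 over all genes above 1 CPM. The test takes its spread from that pair and so favours genes on which the pair agrees. These small distances are therefore no separate result about the called genes.

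Cfd (chr10:79353598-79355401 in mm9, plus strand, 5 exons in its longest transcript) encodes adipsin, the complement factor D secreted by fat cells. Its level was 7.63 CPM in replicate 1, 8.08 CPM in replicate 2 and 82.4 CPM at PN28. PN28 was 10.7-fold above the first and 10.1-fold above the second. The fitted log2 fold change was 3.39 ± 0.16 (SE), with an adjusted p of 0.0090 by edgeR. SE here and below is the size of the fitted log2 fold change divided by the square root of the test's F statistic. It is approximate and was not estimated directly in the fit. Its FPKM, the deposited value corrected for gene length, was 8.37 ± 1.39 at PN14 (SD, n = 2) and 74.3 at PN28. Cfd stood at 0.0523 CPM at E18.5, 11.1 CPM at PN2 and 53.1 CPM in the adult, so that PN28 was the highest of the 6 libraries.

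Slc15a5 belongs to the family of proton-coupled oligopeptide transporters. It had 8 counts in replicate 1, 9 in replicate 2 and 763 at PN28, which is 0.0758, 0.0595 and 6.55 CPM, and the fitted log2 fold change was 6.60 ± 0.30 (SE) with an adjusted p of 0.0090 by edgeR. The size of this change rests on those few PN14 counts, and an SE obtained in this way may understate their counting error. It had 32.7 CPM in the adult, above PN28. Of the 12 members of the SLC15 and SLC16 transporter families above 1 CPM, Slc15a5 and Slc16a9 rose by 1.5-fold and Slc16a13 fell. The shares over all genes were 2.51% up and 2.12% down.

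Bdh1 (chr16:31422366-31458987 in mm9, plus strand, 7 exons) encodes the mitochondrial 3-hydroxybutyrate dehydrogenase, which interconverts the ketone bodies 3-hydroxybutyrate and acetoacetate. Its level was 0.360 and 0.383 CPM at PN14 and 7.71 CPM at PN28, a fitted log2 fold change of 4.37 ± 0.23 (SE) with an adjusted p of 0.011 by edgeR. PN28 was 17.0-fold above replicate 1 and 16.2-fold above replicate 2. The adult had 33.1 CPM, and E18.5 and PN2 had 1.39 and 1.07 CPM, so the PN14 libraries were the lowest of the series. Bdh1 was the sole member of its list to pass, 1 of 9 ketone body genes above 1 CPM, where 2.51% of all genes rose by the 1.5-fold rule. Oxct1, the enzyme that commits acetoacetate to oxidation, had 308 and 127 CPM at PN14 and 470 CPM at PN28, a step smaller than the difference between the PN14 mice. Slc16a1, the monocarboxylate transporter MCT1, had 57.5, 58.7 and 57.8 CPM.

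The 100 bases upstream of the annotated start sites of the 3 called genes are shown because the changes of these genes were the ones called by the test; they are RefSeq sequence of GRCm38.p6, written 5′ to 3′ on the strand of the gene, and Bdh1 has a pair of starts. The lipogenic genes Fasn and Pnpla3, described further on, are shown with them, since their upstream bases hold the CCAAT pentamer, given in capitals on either strand (CCAAT or ATTGG, which overlap in the longer run of Fasn). Thrsp holds it as well, but those bases lie in an annotated 5′ UTR of the gene and are not shown.
Cfd, chr10:79890753-79890852, plus strand: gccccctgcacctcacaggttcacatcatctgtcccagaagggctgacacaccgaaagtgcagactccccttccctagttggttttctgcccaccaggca
Slc15a5, chr6:138079917-138080016, minus strand: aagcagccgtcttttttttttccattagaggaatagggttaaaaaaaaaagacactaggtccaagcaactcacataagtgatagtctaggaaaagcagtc
Bdh1, first start, chr16:31422197-31422296, plus strand: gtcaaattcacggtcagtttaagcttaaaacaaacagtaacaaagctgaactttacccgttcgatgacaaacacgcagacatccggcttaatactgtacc
Bdh1, other start, chr16:31428653-31428752, plus strand: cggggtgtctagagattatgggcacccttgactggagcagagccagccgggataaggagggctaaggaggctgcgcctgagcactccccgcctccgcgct
Fasn, chr11:120824548-120824647, minus strand: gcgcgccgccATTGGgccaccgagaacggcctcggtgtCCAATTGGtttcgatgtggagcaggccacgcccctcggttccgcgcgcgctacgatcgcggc
Pnpla3, chr15:84167716-84167815, plus strand: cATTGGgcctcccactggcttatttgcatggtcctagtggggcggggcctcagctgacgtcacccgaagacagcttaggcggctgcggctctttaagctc

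The 4 motifs named below were searched on both strands of the 250 bases upstream of each start, and none of them was found for the called genes. The pentamer CCAAT was present in the searched bases of 3 of the 6 lipogenic genes that rose and had an entry, and in 33.8% of 32851 mouse promoters. The 3 were Fasn, Thrsp and Pnpla3. The Thrsp matches lie in its annotated 5′ UTR, so this count of 3 includes bases inside a gene. The start listed for Acaca may also lie inside its gene, since the bases before it end in a pyrimidine-rich run and AG, as introns do. Acaca had none of the 4 motifs and stays in the count of 6. Whether the listed starts of the 6 genes are those used in muscle was not tested. The GC-box core, whose letters are GGGCGG, was present in 3 of the 6 genes and in 32.7% of promoters. The E-box, searched here with the letters CACGTG, was present in 0 of the 6 and in 6.02%. The TATA-like hexamer, with the letters TATAAA, was present in 0 of the 6 and in 12.4%. These are matches of letters and say nothing of binding.

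Genes of fat cells held the largest share of genes that rose of the 38 lists examined. Of 22 fat cell genes above 1 CPM, 12 rose by 1.5-fold, 8 of them by 2-fold, and 2 fell, with a median log2 difference of 0.86. Adipoq, which encodes the hormone adiponectin, had 5.66 and 3.31 CPM at PN14 and 26.3 CPM at PN28. Cidec, a protein that makes lipid droplets fuse, had 4.15 and 2.06 CPM and then 18.1 CPM, and the droplet coat perilipin 1 (Plin1) had 2.90 and 1.70 CPM and then 11.4 CPM. For each of these the PN28 mouse lay far outside both PN14 mice, replicate 1 being the nearer. PN14 was not their first appearance: at PN2 Adipoq had 17.9 CPM, Cidec 5.71 CPM and Plin1 11.5 CPM. Each of these PN2 values was above both PN14 libraries, and that of Plin1 was level with PN28. The rest that rose were Retn (resistin), Pck1, Nnat, Lrg1, Thrsp, Cebpa, Rbp4 and Pparg. Pparg, the master regulator of fat cell formation, was among the smaller rises at 5.11 and 4.41 CPM and then 7.79 CPM. Lep, the gene for leptin, had 3.17, 1.05 and 7.33 CPM and did not pass, since the PN14 mice lay further apart than PN28 from the nearer of them.

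Fabp4, the abundant fatty acid binding protein of fat cells that capillary endothelium also makes, had 335, 364 and 352 CPM, with PN28 between the PN14 mice. A set of 7 markers of fat cells (Adipoq, Cfd, Plin1, Retn, Lep, Cidec and Fabp4) was also summed. It shares genes with the list above and was chosen with earlier results known, so it adds no separate support. Of the 7, 6 were higher at PN28 than in both PN14 libraries and 5 rose by 1.5-fold. Their sum was 360, 382 and 503 CPM, of which Fabp4 alone made up 335, 364 and 352 CPM. Cidea, a lipid droplet gene typical of brown fat, fell from 3.48 and 3.55 CPM to 1.83 CPM, and Aqp7, a glycerol channel, fell from 18.3 and 19.2 CPM to 11 CPM. Library-size scaling left 9 that rose and 2 that fell. In whole muscle a larger share of fat cells and more RNA per fat cell cannot be told apart, and the same holds for every cell type named below.

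Rises were also seen in fatty acid synthesis. Of 20 lipogenesis genes above 1 CPM, 7 rose by 1.5-fold, 3 of these by 2-fold, and none fell, with a median log2 difference of 0.59. Fasn, the fatty acid synthase, had 41.0 and 36.8 CPM at PN14 and 121 CPM at PN28, 2.95-fold above replicate 1 and 3.28-fold above replicate 2. Scd1, which puts the double bond into stearate and palmitate, had 124 and 78.8 CPM and then 396 CPM. Mid1ip1, an activator of acetyl-CoA carboxylase, had 18.9 and 14.2 CPM and then 62.1 CPM. Acaca, the carboxylase of the committed step, went from 21.3 and 20.4 CPM to 40.4 CPM, and the PN14 mice were almost level with each other.

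Thrsp (Spot 14), a nuclear protein that follows lipogenic diets and thyroid hormone, rose from 25.8 and 28.5 CPM to 51.1 CPM. Agpat2, an acyltransferase of triglyceride synthesis, rose from 6.65 and 5.98 CPM to 12.5 CPM, and the lipase-related Pnpla3 from 8.26 and 5.69 CPM to 13.7 CPM. Srebf1, the transcription factor that drives these enzymes in liver and fat, had 32.3, 29.0 and 42.5 CPM and stayed below 1.5-fold. Thrsp belongs to both the fat cell and the lipogenesis list, and fat cells use all of these enzymes. The fat cell markers moved with the lipogenic genes, and their part in this result was not tested. Among 19 cholesterol synthesis genes above 1 CPM, Fdft1 (squalene synthase) rose, from 31.6 and 29.1 CPM to 49.9 CPM. The share that rose over all genes was 2.51%.

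Genes of fatty acid use had falls and no rises. Of 30 genes of fatty acid uptake and beta-oxidation, 5 fell by 1.5-fold and none rose, with 24 of the 30 lower than in both PN14 libraries and a median log2 difference of -0.34, and 10 fell with library-size scaling. Pdk4, the kinase that shuts pyruvate dehydrogenase when fat is the fuel, had 535 CPM in replicate 1, 1222 CPM in replicate 2 and 121 CPM at PN28, which is 4.41-fold and 10.1-fold lower. Ucp3, the muscle uncoupling protein induced by fatty acids, fell from 122 and 184 CPM to 68.8 CPM. Acadl, the long-chain acyl-CoA dehydrogenase, fell from 556 and 521 CPM to 301 CPM, and Fabp3, the fatty acid binding protein of muscle, from 808 and 672 CPM to 411 CPM. Plin5, a droplet protein of oxidative tissue, fell from 27.7 and 37.5 CPM to 17.5 CPM.

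Several other steps of the pathway did not pass the rule. Cpt1b, the gate of fatty acid entry into mitochondria, had 387, 364 and 309 CPM, the medium-chain dehydrogenase Acadm 429, 373 and 359 CPM, and the fatty acid transporter Cd36 449, 453 and 345 CPM. Lpl, the lipase that frees fatty acids from lipoproteins, was higher at 379, 362 and 521 CPM but below 1.5-fold. Angptl4, an inhibitor of that lipase induced by fatty acids, had 9.21 CPM in replicate 1 and 50.7 CPM in replicate 2, so that its 3.34 CPM at PN28 did not exceed the spread at PN14.

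**Figure D2:**
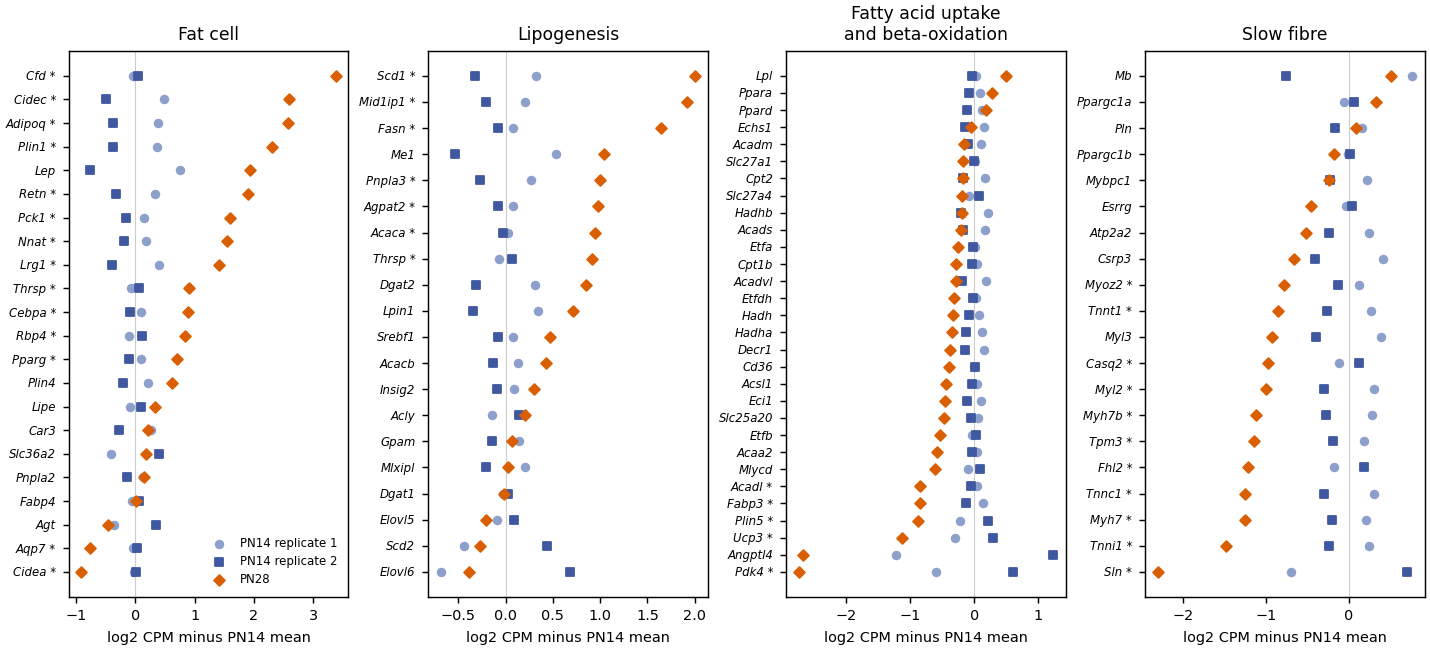
Each row is 1 gene of the list named above the panel that reached 1 CPM, ordered by its change, with its log2 CPM in PN14 replicate 1 (circle), PN14 replicate 2 (square) and PN28 (diamond) given relative to the mean of the PN14 values. Asterisks mark the genes that passed the 1.5-fold rule: 14 fat cell genes (12 up, 2 down), 7 lipogenesis genes (all up), 5 fatty acid genes (all down) and 11 slow fibre genes (all down).

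No gene of glycolysis (25 above 1 CPM), the TCA cycle (23) or oxidative phosphorylation (74) passed the 1.5-fold rule in either direction. Their median log2 differences were 0.30, 0.00039 and -0.072, and without replicate 1 there were 11 glycolysis genes that rose and 2 that fell. Pfkm, the muscle phosphofructokinase, had 2690, 1911 and 3061 CPM, Cs (citrate synthase) 1445, 1209 and 1292 CPM, and Cox4i1 (a subunit of cytochrome oxidase) 968, 852 and 790 CPM. Among 22 glycogen genes 2 rose (12 against replicate 2 alone), where 2.51% of all genes above 1 CPM rose by the 1.5-fold rule. Ppp1r3b, a glycogen-targeting subunit of protein phosphatase 1, rose from 2.49 and 2.49 CPM to 4.70 CPM, and Pygl, the liver-type phosphorylase, from 5.05 and 4.84 CPM to 8.57 CPM. Slc2a4, the insulin-responsive glucose transporter GLUT4, had 424, 294 and 537 CPM and did not pass.

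Developmental muscle genes supplied several of the largest falls. Of 26 embryonic and neonatal genes above 1 CPM, 8 fell, all of them by 2-fold, and none rose, with a median log2 difference of -0.87; without replicate 1, that is, against replicate 2 alone, 18 fell and 1 rose. Embryonic myosin heavy chain, Myh3, had 77.5 CPM in replicate 1, 155 CPM in replicate 2 and 10.7 CPM at PN28, 7.21-fold and 14.4-fold lower. Neonatal myosin heavy chain, Myh8, had 59.98 and 189 CPM and then 10.95 CPM. At E18.5 they had stood at 5133 CPM for Myh3 and 10643 CPM for Myh8. Myl6b, a light chain of embryonic and slow muscle, fell from 129 and 119 CPM to 31.2 CPM, and it was the fall on which the PN14 mice were closest among the 12 largest.

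Igf2, Dlk1 and H19, which are imprinted, were among the 8. Igf2, the fetal growth factor, had 507 CPM in replicate 1 and 1830 CPM in replicate 2 against 130 CPM at PN28, and Dlk1, a membrane regulator of fetal growth, 44.3 and 127 CPM against 15 CPM. H19, the noncoding RNA next to Igf2, fell from 6049 and 6875 CPM to 2540 CPM. Meg3, the noncoding RNA next to Dlk1, had 262 and 1774 CPM at PN14 and 139 CPM at PN28, and did not pass because the PN14 mice differed too widely. Replicate 2 was the higher of the PN14 mice for Myh3, Myh8, Igf2, Dlk1 and H19.

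Slow fibre genes held the largest share of genes that fell. Of 20 slow fibre genes, 11 fell by 1.5-fold, 4 of them by 2-fold, and none rose; 17 of the 20 were lower than in both PN14 libraries, and the median log2 difference was -0.89. Myh7, the slow myosin heavy chain, had 2887 and 2172 CPM at PN14 and 1047 CPM at PN28. The slow troponins fell with it, Tnni1 from 509 and 363 CPM to 154 CPM, Tnnc1 from 404 and 266 CPM to 138 CPM, and Tnnt1 from 760 and 526 CPM to 349 CPM. Sln (sarcolipin), an inhibitor of the calcium pump, went from 13.6 and 35.9 CPM to 4.39 CPM, and Fhl2, a LIM-domain protein, from 10.3 and 13.3 CPM to 5.0 CPM. The other members that fell were Tpm3, Myh7b, Casq2, Myl2 and Myoz2. Sln and Tnni1 also stand in the embryonic and neonatal list. Replicate 1 was the higher of the PN14 mice for Myh7 and the 3 slow troponins, the reverse of the order for the developmental myosins.

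Of 26 fast fibre genes none rose by the rule and 1 fell, while 21 were higher than in both PN14 libraries, with a median log2 difference of 0.49, and 15 rose against replicate 2 alone. Myh4, the fast IIb myosin heavy chain, had 51225 and 40498 CPM and then 72565 CPM, Myh1 (IIx) had 8807, 8186 and 6419 CPM, and Myh2 (IIa) 5483, 3496 and 3860 CPM. The exception was Smtnl1, a smoothelin-like regulator of muscle contraction, which fell from 235 and 229 CPM to 114 CPM. Mylk4, a myosin light chain kinase, stood among the largest rises, from 409 and 151 CPM to 1847 CPM, and reached 4322 CPM in the adult.

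**Figure D3:**
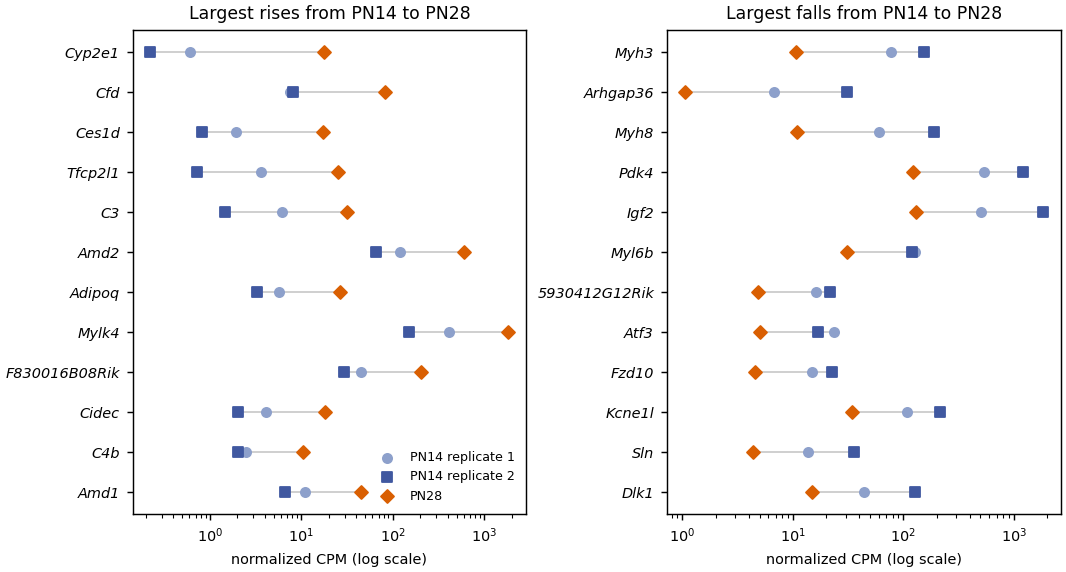
The 12 largest rises (left) and the 12 largest falls (right) among genes past the 2-fold rule with at least 10 CPM at the higher age, ordered by the distance of PN28 (diamond) to the nearer PN14 library (circle, replicate 1; square, replicate 2). The horizontal axis is normalized CPM on a log scale, and for each gene both PN14 points lie on the same side of PN28, closest together for Cfd among the rises and for Myl6b among the falls.

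The remaining large rises covered enzymes, complement and an unnamed locus. Cyp2e1, a cytochrome P450 that oxidises ethanol and ketones, had 0.607 and 0.225 CPM at PN14 and 17.7 CPM at PN28, 25.2-fold and 54.8-fold higher, with an adjusted p of 0.13 by edgeR. Ces1d, a carboxylesterase that hydrolyses triglyceride in fat cells and liver, went from 1.94 and 0.833 CPM to 17.2 CPM. Complement components C3 and C4b rose from 6.16 and 1.48 CPM to 31.3 CPM and from 2.48 and 2.03 CPM to 10.5 CPM. Tfcp2l1, a transcription factor of the grainyhead-like family, had 3.59 and 0.733 CPM and then 25.3 CPM. F830016B08Rik, which the annotation lists as protein-coding, rose from 45.4 and 29.2 CPM to 203 CPM.

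Polyamine enzymes were in this group too. Amd1 and Amd2 encode S-adenosylmethionine decarboxylase, the enzyme that supplies aminopropyl groups for spermidine and spermine. Amd2 had 120 and 66.4 CPM at PN14, 595 CPM at PN28 and 3155 CPM in the adult, and Amd1 had 11.1 and 6.70 CPM, 45.1 CPM and 165 CPM. Their coding sequences in mm9 differ at 1 of 1005 bases, so how the fragments were split between them is uncertain, and their values are read together. Smox, the spermine oxidase, went from 42.7 and 24.7 CPM to 154 CPM and to 365 CPM in the adult. Odc1, the rate-limiting step of polyamine synthesis, had 146, 122 and 160 CPM, and Sms (spermine synthase) 154, 112 and 157 CPM, and neither passed. In the whole list of 33 amino acid and polyamine genes 5 rose and none fell; besides Amd1, Amd2 and Smox these were Gpt2, the mitochondrial alanine transaminase (146 and 80.3 CPM, then 274 CPM), and Chac1, a glutathione-degrading stress gene (25.5 and 20.5 CPM, then 40.1 CPM). The median of that list was 0.17, and library-size scaling turned it to -0.055, while against replicate 2 alone 11 rose and 2 fell.

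**Figure D4:**
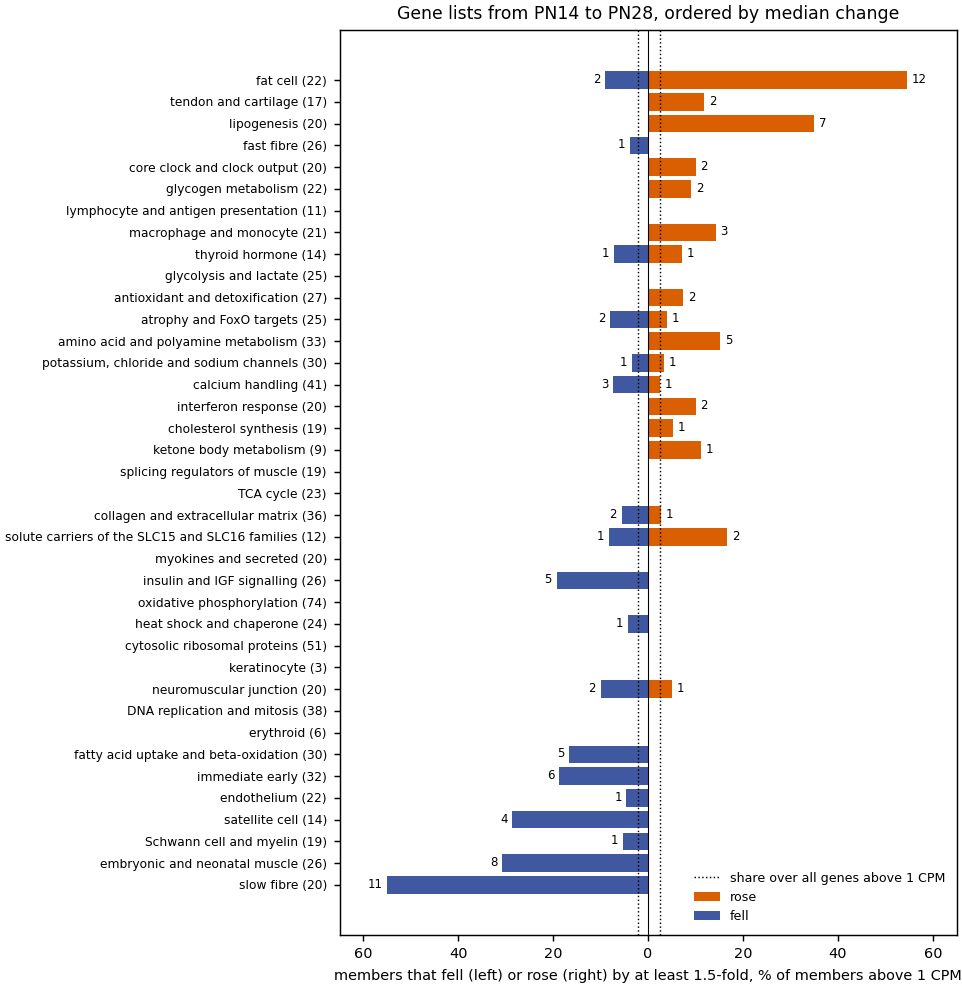
Each bar is the percent of a list's genes above 1 CPM (number in parentheses) that rose (right, orange) or fell (left, blue) by the 1.5-fold rule, with the count at the end of the bar; lists are ordered by their median log2 difference. Dotted lines mark the shares over all genes, 2.51% up and 2.12% down, and the longest bars are those of the fat cell list (12 of 22 up) and the slow fibre list (11 of 20 down).

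Of the 38 gene lists, 9 had at least 4 members past the 1.5-fold rule in 1 direction, and 6 of these have been described. In the insulin and IGF list 5 of 26 fell and none rose. Beside Igf2 these were the binding proteins Igfbp2 (1.73 and 2.60 CPM, then 0.798 CPM) and Igfbp3 (78.3 and 104 CPM, then 45.5 CPM) and the receptor adaptors Grb10 (288 and 438 CPM, then 181 CPM) and Grb14 (28.6 and 26.6 CPM, then 16.7 CPM). Igf1, the growth factor of postnatal life, had 56.9, 71.7 and 88.1 CPM. The median of the list was -0.048 and changed sign against either PN14 mouse alone, to 0.023 against replicate 1 and 0.055 against replicate 2.

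Immediate early genes, which respond within minutes to handling, activity or injury, fell in 6 of 32 cases, and none rose. Fos had 24.9 CPM in replicate 1, 11.8 CPM in replicate 2 and 4.09 CPM at PN28, and the stress factor Atf3 had 23.5 and 16.7 CPM and then 5.09 CPM. Egr1 fell from 33.9 and 21.5 CPM to 13.0 CPM, Egr2 from 7.04 and 5.27 CPM to 2.88 CPM, the cell cycle inhibitor Cdkn1a from 31.0 and 38.9 CPM to 17.5 CPM, and Jund from 106 and 108 CPM to 68.8 CPM. Jun, at 122, 61.7 and 79.1 CPM, lay between the PN14 mice. The median log2 difference of the list was -0.88 against replicate 1 and -0.089 against replicate 2, so its size depends on which PN14 mouse is taken; without replicate 2 there were 24 that fell and 2 that rose, and library-size scaling gave 12 and 0. How the tissue was handled at each age is not given in the sources used here.

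Of 14 satellite cell genes 4 fell and none rose, and without replicate 1 there were 9 that fell. The 4 were Calcr, the calcitonin receptor that marks quiescent satellite cells (3.49 and 5.77 CPM, then 1.48 CPM), Sdc4, and the Notch targets Heyl and Hey1. Pax7, the defining transcription factor of these cells, had 6.53, 8.47 and 4.61 CPM and Myf5 had 3.70, 6.07 and 2.57 CPM, and neither reached 1.5-fold. The summed satellite cell markers were 38.8, 49.4 and 30.0 CPM. No gene of DNA replication and mitosis passed among 38, although 25 were lower by 1.5-fold against replicate 2 alone. The median log2 difference of that list was -0.82 against replicate 2 and 0.22 against replicate 1, so its direction turns with the PN14 mouse taken. Mki67, the proliferation antigen, had 25.8, 57.6 and 32.6 CPM.

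The remaining lists had at most 3 genes past the rule in either direction. Several of them had larger counts against replicate 2 alone, such as 18 of 19 Schwann cell genes and 13 of 22 endothelial genes lower. In that comparison 1349 of all 13046 genes were lower. At the neuromuscular junction 1 of 20 genes rose and 2 fell, where the shares over all genes were 2.51% and 2.12%. Musk, the receptor kinase that organises the synapse, rose from 15.5 and 13.9 CPM to 24.8 CPM. Chrne, the adult subunit of the acetylcholine receptor, fell from 41.6 and 37.5 CPM to 20.5 CPM, as did Agrn from 85.6 and 112 CPM to 54.7 CPM. Among calcium handling genes Casq2 (the cardiac and slow calsequestrin), Sln and Atp2a3 fell. Ppp3cc, a catalytic calcineurin gene expressed in skeletal muscle among other tissues, rose from 12.6 and 8.84 CPM to 19 CPM. Of 36 collagen and matrix genes 1 rose and 2 fell. Eln (elastin) fell from 362 and 417 CPM to 162 CPM and Fbn2, the fetal fibrillin, from 7.29 and 10.7 CPM to 4.2 CPM. The proteoglycan Fmod rose from 264 and 193 CPM to 413 CPM. Col1a1 had 2995, 2604 and 3029 CPM. No gene of 51 cytosolic ribosomal proteins or 19 splicing regulators passed, and Celf1 and Mbnl1 had 118, 112 and 118 CPM and 244, 186 and 335 CPM.

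Fkbp5, a glucocorticoid-induced cochaperone, rose with the PN14 mice almost level, from 9.32 and 9.19 CPM to 30.6 CPM. The muscle ubiquitin ligases Fbxo32 and Trim63, which share its list of atrophy genes, had 70.7, 43.6 and 95.4 CPM and 155, 94.2 and 173 CPM. For the small counts that follow, the shares over all genes above 1 CPM were 2.51% up and 2.12% down. Of 27 antioxidant and detoxification genes 2 rose and none fell. They were Mgst1, a microsomal glutathione transferase (6.70 and 5.57 CPM, then 22.1 CPM), and Gpx3, the secreted glutathione peroxidase (25.3 and 24.9 CPM, then 52.3 CPM). Of 21 macrophage genes 3 rose, Retnla (7.27 and 5.79 CPM, then 16.8 CPM), Folr2 and Ccl6, and summed macrophage markers were 70.2, 79.0 and 94.7 CPM. The interferon-induced genes Igtp and Ifit3 rose from 11.7 and 10.2 CPM to 24.9 CPM and from 1.52 and 1.48 CPM to 3.34 CPM, the sole ones to pass of 20 in their list.

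Clock genes showed large differences between the PN14 mice themselves, and of 20 in the list 2 rose and none fell (12 and 2 against replicate 2 alone). By the 1.5-fold rule 2.51% of all genes above 1 CPM rose and 2.12% fell. Per1 had 114 CPM in replicate 1 and 16 CPM in replicate 2, and PN28 lay between them at 63.5 CPM. Dbp had 55.3, 21.4 and 93.5 CPM, Per2 17.9, 8.68 and 31.3 CPM, and Arntl, whose phase is opposite, 11, 17.6 and 8.89 CPM. Hlf, an output factor, rose from 10.3 and 6.65 CPM to 23.8 CPM. The hour at which each mouse was sampled is not given in the sources used here.

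A pair of neighbouring genes stood among the largest falls. Fzd10, a Wnt receptor, had 14.8 and 22.7 CPM at PN14 and 4.57 CPM at PN28, and the long noncoding RNA 5930412G12Rik had 16.2 and 21.6 CPM and then 4.88 CPM. In mm9 the noncoding gene lies at chr5:129084981-129106568 on the minus strand and Fzd10 at chr5:129106719-129109968 on the plus strand, with starts 151 bases apart. Whether the counting used strand is not stated in the sources. Arhgap36 and Kcne1l, a GTPase-activating protein and a potassium channel subunit, completed the 12 largest falls, from 6.69 and 31.2 CPM to 1.05 CPM and from 107 and 215 CPM to 34.2 CPM.

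**Figure D5:**
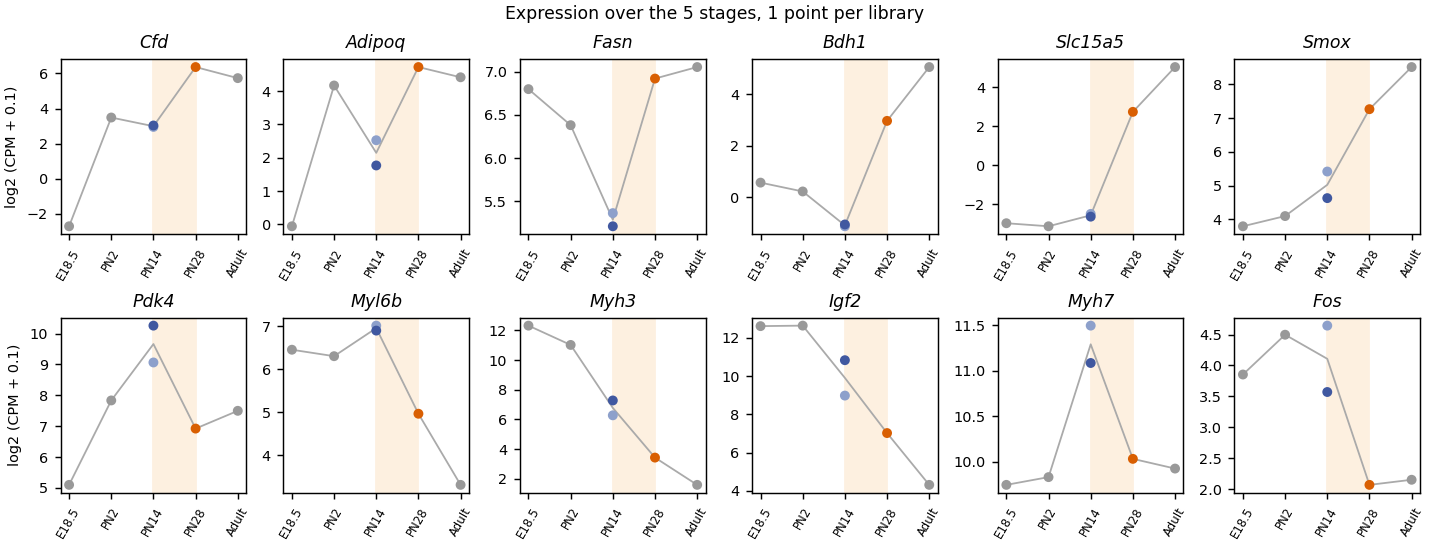
Log2 of CPM plus 0.1 is plotted for 12 genes at E18.5, PN2, PN14, PN28 and in the adult, with 1 point per library, both PN14 libraries shown and the line passing through their mean; the interval from PN14 to PN28 is shaded and each panel has its own vertical scale. Fasn and Bdh1 have their lowest points at PN14, Pdk4, Myl6b and Myh7 have their highest there, and Myh3 and Igf2 fall through the whole postnatal course.

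Set within all 5 stages, the genes that changed after PN14 followed more than 1 course. Fasn had 111 CPM at E18.5, 83.3 CPM at PN2 and 133 CPM in the adult, so that PN14 was a low point to which PN28 did not belong. Pdk4 was highest at PN14, after 34.2 CPM at E18.5 and 228 CPM at PN2 and before 181 CPM in the adult, and Myh7 had 859 and 911 CPM at the earlier ages and 972 CPM in the adult. Slc15a5, Bdh1, Smox and Amd2 were higher in the adult than at PN28, whereas Cfd and Adipoq were lower. Adipoq, Cidec and Plin1 had also been higher at PN2 than in both PN14 libraries, after low values at E18.5. Each stage other than PN14 is 1 library, and these orders have no replicate check.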

How the data were processed

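RNA from gastrocnemius muscle was sequenced by the authors from poly(A) libraries with paired-end reads. Per the labels, reads were aligned with TopHat2 2.0.5 to mm9 and quantified with RSEM (version not given) on RefSeq genes. The deposited table holds RSEM expected counts, which the authors gave as whole numbers without normalization, and FPKM, which the authors gave relative to transcript length and library size, to 2 decimals. There were 23367 entries, of which 27 had symbols turned into dates and were kept as given. Libraries held 125402932 to 157868359 counts on genes.

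Counts were analysed in R 4.3.3 with edgeR 4.0.16: TMM, filterByExpr by stage (16882 genes), all 6 libraries in 1 fit with 5 stages, quasi-likelihood test of PN28 against PN14, Benjamini-Hochberg adjustment over all genes tested, called where the adjusted p was under 0.05 and the log2 fold change reached 1 in size. Residual degrees of freedom numbered 1, given by the replicates of PN14 (common biological coefficient of variation 0.188, prior 4.86 degrees of freedom), so p-values assume that other stages vary as PN14 does. CPM are TMM-normalized; the fold rules used a pseudocount of 0.1 CPM and a floor of 1 CPM in at least 1 of the 3 libraries, and folds understate the change of low genes. DESeq2 1.42.0, edgeR's exact test, other scalings, filters, floors and pseudocounts, FPKM, and leaving out each PN14 library were alternatives. The code was checked on simulated data.

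Named genes were those called, the 12 largest changes in each direction past the 2-fold rule with at least 10 CPM, up to 4 members per list past the 1.5-fold rule, and members that define a list by textbook role. Further members named to complete a count of a list come from the same table of members. The genes followed, the 38 lists and the rules were chosen with earlier results of these data known. The lists shared genes (992 entries, 951 different). Coordinates are from GENCODE M1 on mm9; upstream sequences are from RefSeq on GRCm38.p6, and coordinates of the builds were not mixed. Splicing was not analysed here, and some genes that these rules name are not reported here.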

Additional observations from a re-analysis of the deposited data

How the results depend on the processing

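The quasi-likelihood test called 3 genes; 262 were called with scaling to library size alone (94 higher, 168 lower), 241 with edgeR's exact test (156 and 85), 135 with DESeq2's Wald test (82 and 53) and 56 without the filter on low counts (47 and 9). Cfd, Slc15a5 and Bdh1 were called in each of these, and 3 genes were called with DESeq2 size factors, with a mean of at least 1 CPM and in a fit of the 3 libraries alone. The exact and Wald tests do not carry the uncertainty of the spread, which here rests on 1 pair. Of the 183 genes past the 2-fold rule, library size called 106, the exact test 164, DESeq2 107 and the unfiltered test 55.

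The 114 genes that rose by 2-fold became 61 with a floor of 10 CPM and 70 in FPKM, and the 69 that fell became 26 with a pseudocount of 1 CPM and 27 with a floor of 10 CPM. The 328 that rose by 1.5-fold became 189 with library size, 175 with the higher floor and 154 in FPKM; the 277 that fell became 458, 157 with the higher pseudocount, 118 with the higher floor and 430 with no floor. Against 1 PN14 mouse alone, with no replicate distance to exceed, the counts were 150 (replicate 1) and 482 (replicate 2) up and 126 and 432 down by 2-fold, and 497 and 1321 up and 460 and 1349 down by 1.5-fold. Lists with at least 4 members past the rule were 9, and 14 without replicate 2 and 27 without replicate 1. With 1 PN14 library left out no residual degree of freedom remains, so no test was possible.

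Between the PN14 mice, the 361 genes at 2-fold became 179 with the higher pseudocount and 167 with the higher floor, and the 1341 at 1.5-fold became 2110 with library size and 664 with the higher floor. These comparisons of the PN14 mice were added after seeing the data. The cause of these shifts was not tested, except that a higher floor leaves fewer genes. With library size 9 of the 38 list medians changed sign, each 0.23 or less in size before, among them that of amino acids and polyamines (-0.055), and so did the log2 fold changes of Fabp4 (-0.23), Celf1 (-0.20), Col1a1 (-0.11) and Csf1r (-0.11). List medians that changed sign numbered 1 with DESeq2 size factors, 5 without replicate 1 and 9 without replicate 2, and the insulin and IGF median did so in both of the latter (0.055 and 0.023); the largest of them were DNA replication and mitosis (-0.26, and 0.22 without replicate 2) and erythroid (-0.29, and 0.20 without replicate 1). Of the 137 genes followed, 56 passed the test's threshold with library size and none did with DESeq2 size factors beyond those called. Low genes are limited by depth: Slc15a5 had 8 and 9 counts at PN14. No paired analysis was possible because PN28 has 1 library.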

Other observations

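Complement genes other than those named by rule were looked up after the values of Cfd, C3 and C4b had been seen, and they are given as values. C7, a component of the membrane attack complex, had 0.654 CPM in PN14 replicate 1, 0.350 CPM in replicate 2 and 5.90 CPM at PN28, and 31.0 CPM in the adult. Cfb, which factor D cleaves in the alternative pathway, had 2.38, 2.12 and 5.68 CPM. Both genes lay above both PN14 mice by at least 2-fold, and neither was called by edgeR's quasi-likelihood test (adjusted p 0.13 and 0.37).

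Npas2, a clock factor, was also looked up after its value was seen. It had 1.23 CPM in replicate 1, 4.06 CPM in replicate 2 and 0.506 CPM at PN28, with the PN14 mice further apart than PN28 from the nearer of them. Hemoglobin and other erythroid markers summed to 1348, 622 and 820 CPM, and the keratin markers of skin to 4.49, 4.88 and 4.28 CPM with Krt5 and Krt14 at 0 counts at PN28.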
